A study of Mus musculus with 6 samples.

Results

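In mouse intestinal organoids, 1512 chromatin regions were least open after arachidonic acid (AA). They are ATAC-seq peaks on the 19 autosomes, chosen by a ratio of signal from 83180 autosomal peaks with a mean of at least 1 CPM (the count of a peak scaled to the total of its library). They made up 1.82% of those, and the table held 90823 peaks in all. A peak was selected when its lowest CPM in the 4 PGE2 and Vehicle libraries exceeded the higher CPM of the 2 AA libraries by at least 25%. Peaks whose lowest Vehicle CPM was at least 1.5 times the highest AA or PGE2 CPM were taken out, which removed 111 of 1623. The peaks are therefore lower with AA than in both other groups. The second step took out only peaks with both Vehicle libraries that far above every AA and PGE2 library. Some peaks that were lower with both treatments therefore remain.

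Peak positions are those of build mm10. The series compared 3 groups of 2 libraries each: organoids with 25 µM AA, organoids with 50 nM PGE2 and organoids with Vehicle, each for 3 days. The labels' protocols name the prostaglandin as PGE2, whereas the series' design text gives a dimethyl analogue of it, so the exact compound is uncertain. All groups, Vehicle included, were grown from mouse crypts in Matrigel in a medium with EGF, Noggin, R-spondin, the GSK3 inhibitor CHIR-99021 and the ROCK inhibitor Y-27632. Epithelial cells were sorted before the Omni-ATAC reaction. The labels give no mouse strain, age or solvent, and do not say whether the 2 libraries of a group came from separate cultures. Any p-value therefore measures the spread between these libraries, which may be technical.

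AA is a polyunsaturated fatty acid of membrane phospholipids. Cyclooxygenases and prostaglandin E synthases turn it into PGE2, which signals through its EP receptors, and AA is also a substrate of lipoxygenases and cytochrome P450 enzymes. In the gut epithelium PGE2 is known for its part in repair and in stem cell maintenance. ATAC-seq measures open chromatin with a transposase that inserts adapters where DNA is accessible, mostly at enhancers and gene starts. A weaker peak can mean fewer cells with that region open or less access in each cell, and bulk libraries cannot tell these apart.

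Libraries held 12374232 to 14236985 counts in peaks, and each group's pair was close, with a chi-square per degree of freedom between pair members of 1.12 for AA, 1.55 for PGE2 and 1.1 for Vehicle. Peaks near epithelial marker genes summed to 3573 to 3620 CPM with AA, 3304 to 3402 CPM with PGE2 and 3471 to 3520 CPM with Vehicle. Peaks near 14 fibroblast and stromal markers summed to 186 to 190, 181 to 189 and 204 to 207 CPM in the same order. Those near immune markers summed to 147 to 153 CPM with AA, 152 to 154 CPM with PGE2 and 154 to 156 CPM with Vehicle. Those near endothelial markers summed to 543 to 556, 550 to 572 and 574 to 579 CPM, again with Vehicle last. A peak was found near 12 of 12 epithelial, 11 of 14 stromal, 7 of 14 immune and 11 of 12 endothelial markers. Both Vehicle libraries had the highest stromal and endothelial sums, and the part of that in the results was not tested.

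Of the selected peaks, 141 lay within 1 kb of the start of a protein-coding gene. Promoter windows of 300 bases, from 250 before to 50 after the start, were taken from RefSeq (GRCm38.p6). Of these, 120 windows of 112 genes overlapped a selected peak. The windows were not limited to protein-coding genes. They lay under 103 selected peaks, not all of them among the 141, so window shares do not describe the 141 as a set. The windows below belong to 3 of the named gene-start peaks, with values given further on, and are shown because they carry 3 of the largest gene-start ratios and few of the searched motifs. Capitals mark a match to the KLF motif CCCCNCCC or its reverse complement, and windows wholly in lower case held none of the 12 motifs searched. Sequences are written 5′ to 3′ on the strand of the gene.
Epha5, minus strand, chr5:84417333-84417632: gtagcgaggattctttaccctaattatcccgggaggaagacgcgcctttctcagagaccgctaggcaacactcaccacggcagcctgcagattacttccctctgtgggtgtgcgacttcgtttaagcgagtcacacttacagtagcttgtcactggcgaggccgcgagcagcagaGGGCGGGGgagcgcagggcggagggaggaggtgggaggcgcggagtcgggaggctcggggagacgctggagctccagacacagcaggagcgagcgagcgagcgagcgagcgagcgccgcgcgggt
Hcn4, plus strand, chr9:58822699-58822998: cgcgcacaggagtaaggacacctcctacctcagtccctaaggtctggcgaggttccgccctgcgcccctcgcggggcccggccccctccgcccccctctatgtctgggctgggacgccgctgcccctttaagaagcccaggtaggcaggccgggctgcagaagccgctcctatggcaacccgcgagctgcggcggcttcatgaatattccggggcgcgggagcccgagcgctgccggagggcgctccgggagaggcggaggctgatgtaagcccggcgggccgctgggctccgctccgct
Nphp4, plus strand, chr4:152477488-152477787: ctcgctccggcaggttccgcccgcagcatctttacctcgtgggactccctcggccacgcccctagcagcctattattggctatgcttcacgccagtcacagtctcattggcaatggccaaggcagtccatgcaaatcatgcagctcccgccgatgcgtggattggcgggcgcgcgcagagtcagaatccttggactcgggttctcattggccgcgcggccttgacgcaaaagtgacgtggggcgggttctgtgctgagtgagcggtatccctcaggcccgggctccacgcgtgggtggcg
The Epha5 window has 30 CG pairs, that of Hcn4 31 and that of Nphp4 27, against a median of 19 over the 120 windows under selected peaks. The sequences under the selected peaks away from gene starts were not used here.

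Signal in the selected peaks was low, and lowest with AA by selection. The median peak had 1.69 and 1.62 CPM in the AA libraries, 2.76 and 2.69 CPM in the PGE2 libraries and 3.12 and 3.02 CPM in the Vehicle libraries. In counts these medians were 24 and 20 with AA, 36 and 36 with PGE2, and 40 and 39 with Vehicle. The median over all autosomal peaks of at least 1 CPM was 5.08 to 5.35 CPM in the 6 libraries. The median width was 466 bp (176 to 2385) for the selected peaks and 580 bp (175 to 3966) for all those peaks. Among all those peaks the median width was larger in stronger peaks, so it is also given by mean signal. It was 316 against 299 bp at 1 to 2 CPM and 526 against 477 bp at 2 to 5 CPM. At 5 to 10 CPM it was 726 against 648 bp. The selected peaks were narrower only at 10 CPM and over, with 840 against 953 bp.

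The size of the difference was set in part by the rule and is given as a description. The median log2 change with AA was -0.83 over Vehicle, a 1.78-fold lower signal, and -0.69 over PGE2, a 1.61-fold lower signal. Single peaks ranged from -2.15 to -0.34 over Vehicle and from -1.96 to -0.35 over PGE2. The median over all tested peaks was -0.02 and -0.01. The ratio that selected the peaks had a median of 1.35 and reached 2.47, and it was at least 1.5 in 257 peaks and at least 2 in 14.

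With edgeR's quasi-likelihood test over all 89347 tested peaks and an adjusted p threshold of 0.05, 1096 selected peaks (72.5%) were called lower with AA than with Vehicle, and 13.8% of all tested peaks were. Against PGE2, 560 (37%) were called lower with AA, and 4.88% of all tested peaks were. Both calls held for 495 peaks (32.7%), against 1.19% of all tested. In neither comparison were 351 called. These were weak peaks, with a median of their mean CPM of 1.51, whereas it was 5.37 for those called in both. The same contrasts selected the peaks, so these counts describe how often 2 libraries a group sufficed for a call. They fell to 685, 704 and 701 against Vehicle without AA replicate 1, AA replicate 2 and Vehicle replicate 1, or 45.3%, 46.6% and 46.4% of the selected peaks against 8.61%, 8.9% and 8.7% of all tested. Against PGE2 they fell to 209 (13.8%) without AA replicate 2 and 292 (19.3%) without PGE2 replicate 2, against 2.42% and 2.5% of all tested. Without AA replicate 1 they fell to 154 (10.2%), against 1129 of 90243 tested peaks. DESeq2 called 319 of the 1451 selected peaks to which it gave an adjusted p against Vehicle (22%), and 3.58% of all such peaks. Against PGE2 it called 15 of 201 (7.46%), and 0.974% of all such peaks.

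The rule also bounds the difference between PGE2 and Vehicle, so that it too is only described. The median log2 change of PGE2 over Vehicle was -0.13, with a range of -1.05 to 1.29. Both PGE2 libraries lay above both Vehicle libraries in 118 peaks (7.8%), below both in 719 (47.6%), and overlapped them in 675 (44.6%). Over all autosomal peaks of at least 1 CPM these shares were 27.7%, 35% and 37.3%. The test called 115 lower with PGE2 (7.61%, against 10.6% of all tested peaks) and 7 higher (0.463%, against 14.3% of all tested peaks). The clause of the rule on Vehicle limited how low PGE2 could be, and the AA ratio limited it from below, so nothing is read from any of these values. The count called lower with PGE2 fell when any PGE2 or Vehicle library was left out, and the share of all tested peaks called lower fell as well. DESeq2 called 14 of 889 lower (1.57%), against 3.06% of all peaks to which it gave an adjusted p.

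**Figure D1:**
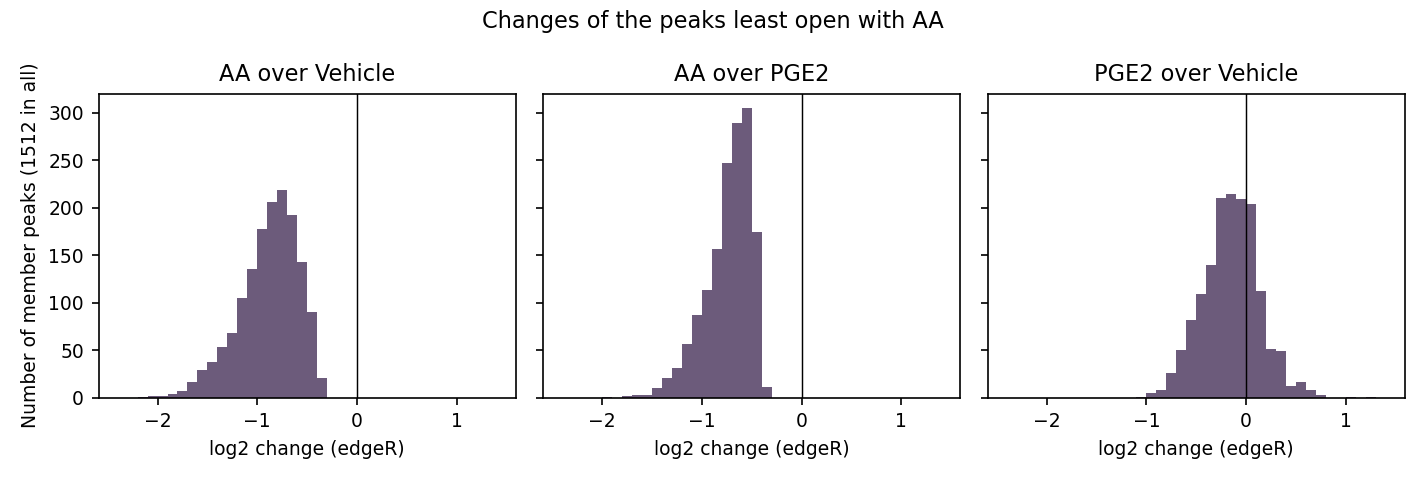
Histograms of the edgeR log2 change of the 1512 selected peaks, in bins along the horizontal axis, with the number of peaks on the vertical axis, for AA over Vehicle, AA over PGE2 and PGE2 over Vehicle. All changes with AA lie below 0, as the selection requires, and those of PGE2 over Vehicle lie on both sides of 0 around a median of -0.13.

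The rule was also applied to single libraries of each group, as a description. Choosing with the libraries numbered 1 alone gave 7474 peaks, of which 2177 (29.1%) also exceeded AA by 25% in the libraries numbered 2. Over all 83180 peaks, 9.87% did so there. All peaks were not matched to the chosen ones on mean signal, and the part of that in these shares was not tested. The median ratio of the chosen peaks was 1.41 in the choosing libraries, 1.08 in the others, and 0.91 there over all peaks. In the reverse direction 2059 of 6889 (29.9%) passed, against 10.3% of all. The ratio was thus smaller in libraries that took no part in the choice, and the 1512 peaks, chosen on all 6 libraries, have no such second reading.

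Among the 12 peaks with the largest ratios at a mean of at least 2 CPM, 1 per gene, was one inside Fads1, the delta-5 desaturase that makes AA from its precursor. This peak at chr19:10184134-10184472 had 3.58 and 2.99 CPM with AA, 6.74 and 6.73 CPM with PGE2 and 7.8 and 9.22 CPM with Vehicle. Both AA libraries were below all others, and the PGE2 libraries were below the Vehicle libraries. The log2 change with AA was -1.33 ± 0.17 over Vehicle and -1.04 ± 0.18 over PGE2 (SE). Of the other 5 tested peaks of Fads1, 3 were called lower with AA than with Vehicle, 2 were called lower than with PGE2, and none was called higher in either.

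The peak in A4galt, which makes the glycolipid Gb3, lay at chr15:83248108-83248691 and had 4.07 and 4.85 CPM with AA, 8.35 and 8.6 CPM with PGE2 and 10.8 and 10.9 CPM with Vehicle. Its groups did not overlap, and its log2 change with AA was -1.26 ± 0.15 over Vehicle and -0.94 ± 0.16 over PGE2. In Adcy6, an adenylyl cyclase that makes cAMP, the peak at chr15:98606218-98606406 had 2.67 and 2.42 CPM with AA, 4.9 and 4.78 CPM with PGE2 and 4.91 and 5.81 CPM with Vehicle. Here the higher PGE2 library was level with the lower Vehicle library. The peak 1450 bp from Il17ra, a receptor subunit for interleukin 17, lay at chr6:120485068-120485295 and had 1.26 and 1.45 CPM with AA, 2.61 and 2.77 CPM with PGE2 and 3.04 and 3.1 CPM with Vehicle. Mapk13, a p38 kinase, had a peak at chr17:28777220-28778174 with 2.18 and 2.02 CPM with AA, 3.75 and 4.19 CPM with PGE2 and 4.6 and 4.88 CPM with Vehicle. In all 3 of these last peaks PGE2 lay below Vehicle, in Adcy6 only just.

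In the atypical cadherin gene Fat1 the peak at chr8:44998713-44999164 had 2.32 and 2.18 CPM with AA, 4.14 and 4.04 CPM with PGE2 and 4.68 and 4.81 CPM with Vehicle. The peak in Upp1, uridine phosphorylase, lay at chr11:9131757-9132065 and had 1.12 and 1.13 CPM with AA, 2.22 and 2.62 CPM with PGE2 and 3.04 and 2.71 CPM with Vehicle. In Pclo, a presynaptic scaffold gene, the peak at chr5:14625580-14626319 had 1.9 and 1.62 CPM with AA, 3.37 and 3.96 CPM with PGE2 and 3.59 and 3.57 CPM with Vehicle, and the PGE2 and Vehicle libraries overlapped. The same overlap was seen at chr2:141352669-141353151 in Macrod2, an ADP-ribose hydrolase gene, with 1.83 and 1.86 CPM with AA, 3.98 and 3.66 CPM with PGE2 and 4.37 and 3.72 CPM with Vehicle. A peak 22778 bp from A530021J07Rik had the ratio 2.08, with 1.62 and 1.37 CPM with AA, 3.37 and 3.36 CPM with PGE2 and 4.21 and 4.34 CPM with Vehicle. Near Txnl1, a thioredoxin-like gene, the values were 1.62 and 1.94 CPM with AA, 3.6 and 3.81 CPM with PGE2 and 4.76 and 4.88 CPM with Vehicle. At the start of Sh3tc2 they were 1.33 and 0.808 CPM with AA, 2.53 and 2.69 CPM with PGE2 and 2.96 and 2.4 CPM with Vehicle, with unequal AA libraries of 19 and 10 counts. The largest ratio of all, 2.47, was in a weak peak 23747 bp from Sult1c1, a sulfotransferase gene, at 0.421 and 0.485 CPM with AA, 1.23 and 1.2 CPM with PGE2 and 1.4 and 1.32 CPM with Vehicle, and it is named here after its values were seen. Its AA values rest on 6 counts in each library.

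**Figure D2:**
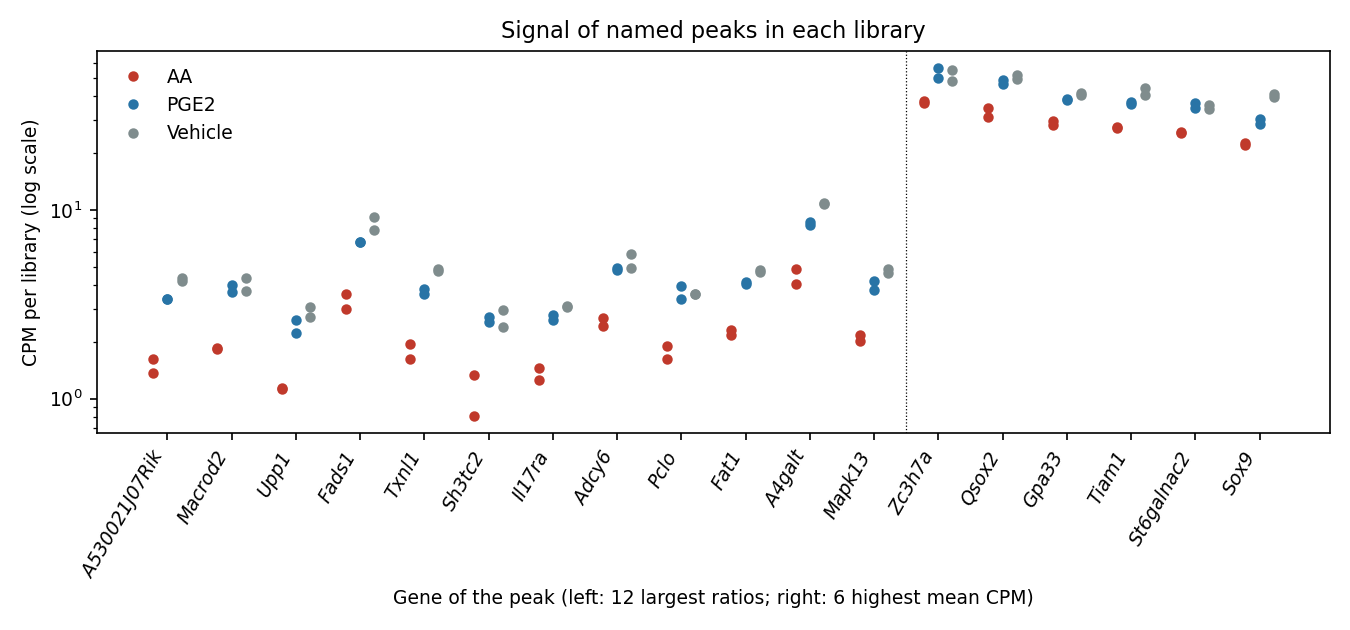
CPM of 18 selected peaks in each of the 6 libraries on a log axis, with AA left of PGE2 and Vehicle for each peak. The 12 peaks with the largest ratios are left of the dotted line and the 6 with the highest mean CPM are right of it, and in all 18 both AA points lie below the other 4.

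The strongest selected peaks near a gene had smaller ratios, of 1.27 to 1.33. In Gpa33, a surface glycoprotein of the intestinal epithelium, the peak at chr1:166154255-166155682 had 28.2 and 29.7 CPM with AA, 38.8 and 38 CPM with PGE2 and 40.7 and 41.8 CPM with Vehicle. Qsox2, a sulfhydryl oxidase gene, had 31 and 34.7 CPM with AA, 48.9 and 46.2 CPM with PGE2 and 49.7 and 52 CPM with Vehicle at chr2:26233772-26235431. In St6galnac2, a sialyltransferase gene, the peak at chr11:116690757-116691703 had 25.8 and 25.4 CPM with AA, 36.9 and 34.8 CPM with PGE2 and 34.2 and 36 CPM with Vehicle, and PGE2 and Vehicle overlapped. They overlapped also in the peak of Zc3h7a, a zinc finger gene, at chr16:11143912-11144313, with 37.6 and 37 CPM with AA, 50.3 and 56.4 CPM with PGE2 and 48.3 and 55.3 CPM with Vehicle.

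Sox9, a transcription factor gene of crypt progenitors and Paneth cells, had a selected peak 47856 bp away, at chr11:112835172-112836055. It had 22.5 and 22.2 CPM with AA, 28.6 and 30.3 CPM with PGE2 and 39.5 and 40.9 CPM with Vehicle, so that PGE2 lay between the other groups without overlap. Its log2 change with AA was -0.81 ± 0.08 over Vehicle and -0.41 ± 0.08 over PGE2, and that of PGE2 over Vehicle was -0.40 ± 0.08. Of the other 8 tested peaks of Sox9, none was called lower with AA in either comparison, and 1 was called higher than with Vehicle. Tiam1, a Rac exchange factor gene, had a peak 36008 bp away with 27 and 27.5 CPM with AA, 37.3 and 36.3 CPM with PGE2 and 40.7 and 44.3 CPM with Vehicle. The highest mean of all selected peaks, 73.9 CPM, belonged to a peak of 259 bp on chromosome 3, with Pex2, at 281873 bp, as its nearest protein-coding gene, with 57.5 and 52.9 CPM with AA, 76.2 and 72.1 CPM with PGE2 and 90.8 and 94 CPM with Vehicle. It was named after its values were seen.

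At gene starts, the 6 largest ratios were in weak peaks with means of 1.07 to 2 CPM. The peak over the Hcn4 window printed above, at chr9:58822533-58823219, had 0.983 and 1.05 CPM with AA, 2.15 and 3.36 CPM with PGE2 and 2.34 and 2.09 CPM with Vehicle. Hcn4 encodes a pacemaker channel. At Nphp4, a gene of the base of the cilium, the peak at chr4:152477514-152477926 had 0.913 and 0.97 CPM with AA, 1.99 and 1.94 CPM with PGE2 and 2.34 and 2.48 CPM with Vehicle. At Epha5, an ephrin receptor gene whose region a second gene model shares, the peak at chr5:84417248-84417718 had 0.913 and 1.21 CPM with AA, 2.22 and 2.39 CPM with PGE2 and 2.26 and 2.95 CPM with Vehicle. In each, the AA libraries were near 1 CPM and the others near or above 2.

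Kctd1, a BTB domain gene, had 0.913 and 0.808 CPM with AA, 2.07 and 2.39 CPM with PGE2 and 2.18 and 2.02 CPM with Vehicle at a start peak on chromosome 18. At Calhm6, a gene of the calcium homeostasis modulator channel family, the values were 0.421 and 0.566 CPM with AA, 1.99 and 1.05 CPM with PGE2 and 1.33 and 1.09 CPM with Vehicle, which for AA are 6 and 7 counts. At Set, whose protein binds histones and inhibits the phosphatase PP2A, they were 0.983 and 0.97 CPM with AA, 2.07 and 2.99 CPM with PGE2 and 1.79 and 1.94 CPM with Vehicle. At Set both PGE2 libraries were above the Vehicle libraries, and at Hcn4, Kctd1 and Calhm6 they overlapped them. At Hcn4, Set and Calhm6 the PGE2 libraries were the most unequal pair in CPM. The log2 changes with AA were -1.09 ± 0.34 over Vehicle and -1.45 ± 0.32 over PGE2 for Hcn4 and -0.89 ± 0.35 over Vehicle and -1.38 ± 0.33 over PGE2 for Set.

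Of the 141 gene-start peaks, 106 (75.2%) were called lower with AA than with Vehicle and 86 (61%) lower than with PGE2. Among the 13473 other autosomal gene-start peaks of at least 1 CPM, 6.58% were called lower with AA than with Vehicle and 18.9% lower than with PGE2. Called higher with PGE2 than with Vehicle were 5 (3.55%) of the 141, and 36.9% of those other gene-start peaks. The rule bounds this difference and the sets differ in signal, so nothing is read from these shares. Of the 141, 8 had a mean of at least 10 CPM, against 9700 of all 13614 autosomal gene-start peaks. Of the 7 selected peaks called higher with PGE2 than with Vehicle, 5 lay at gene starts, those of 1110032F04Rik, Fam168b, Foxc2, Sez6 and Zfyve28. These 7 were picked out after their values were seen. Foxc2, a forkhead transcription factor gene, had 2.88 and 2.91 CPM with AA, 4.21 and 7.32 CPM with PGE2 and 3.98 and 3.95 CPM with Vehicle. Sez6, a gene known from neurons, had 1.4 and 1.45 CPM with AA, 3.37 and 4.04 CPM with PGE2 and 2.18 and 2.4 CPM with Vehicle. The FYVE domain gene Zfyve28, whose region a second gene model shares, had 0.983 and 1.45 CPM with AA, 2.99 and 3.44 CPM with PGE2 and 1.87 and 1.94 CPM with Vehicle. In Fam168b the values were 0.983 and 1.13 CPM with AA, 2.38 and 4.11 CPM with PGE2 and 1.64 and 1.63 CPM with Vehicle, and in 1110032F04Rik they were 2.53 and 3.07 CPM with AA, 5.9 and 6.95 CPM with PGE2 and 4.52 and 4.34 CPM with Vehicle. The other two lay in Siglec15, a sialic acid binding lectin gene, with 0.632 and 0.647 CPM with AA, 2.22 and 2.77 CPM with PGE2 and 0.858 and 1.24 CPM with Vehicle, and in Gse1, with 2.67 and 2.34 CPM with AA, 5.67 and 6.58 CPM with PGE2 and 4.68 and 4.5 CPM with Vehicle. The log2 changes of PGE2 over Vehicle ran from 0.46 ± 0.17 in Gse1 to 1.29 ± 0.34 in Siglec15. PGE2 replicate 2 was the higher PGE2 library in all 7. Leaving out PGE2 replicate 1 raised the number of selected peaks called higher, and leaving out PGE2 replicate 2 or either Vehicle library lowered it. The share of all tested peaks called higher with PGE2 fell in each of these fits, which had 1 library in a group. DESeq2 called 0 of 889 selected peaks, with 2 at an unadjusted p under 0.05. It called 7.8% of all peaks to which it gave an adjusted p. Over all peaks, gene-start peaks held 34.3% and 34.9% of counts in the AA libraries, 36.5% and 38.2% in the PGE2 libraries and 33.8% and 33.2% in the Vehicle libraries. The part of that shift in the gene-start results was not tested.

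Selected peaks were less often at gene starts than peaks in general, 9.33% against 16.4% of all autosomal peaks of at least 1 CPM. Among all peaks that share was higher in stronger peaks, so it is also given by mean signal. It was 6.66% against 5.31% at 1 to 2 CPM, 11.5% against 6.1% at 2 to 5 CPM and 11.5% against 10.5% at 5 to 10 CPM. Only the 111 selected peaks of 10 CPM and over had the lower share, 7.21% against 34.9%. By the same ratio, 532 peaks were least open with PGE2, and 3.38% of them lay at gene starts. Of the 1866 peaks whose lowest Vehicle signal was at least 1.5 times the highest AA or PGE2 signal, 4.72% did.

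The rest of the selected peaks lay inside a gene in 46% of cases, outside within 50 kb in 28%, and farther away in 16.6%. For all autosomal peaks of at least 1 CPM these shares were 43.5%, 29.1% and 11%. The median distance to a gene start was 22412 bp for the selected peaks and 15787 bp for all. By mean signal, it was 26725 against 24612 bp at 1 to 2 CPM and 20848 against 20638 bp at 2 to 5 CPM. It was 18361 against 16107 bp at 5 to 10 CPM and 22533 against 6556 bp at 10 CPM and over. Inside a gene were 48.1% against 50%, 44.1% against 48.7%, 46.1% against 46.5% and 45% against 33.6%, in the same order of classes. Farther than 50 kb were 16.9% against 14.1%, 16.1% against 12.5%, 15.7% against 11.4% and 19.8% against 7.76%. Exons and introns were not told apart. By chromosome, selected peaks made up from 1.46% of the peaks on chromosome 15 to 2.37% of those on chromosome 13.

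**Figure D3:**
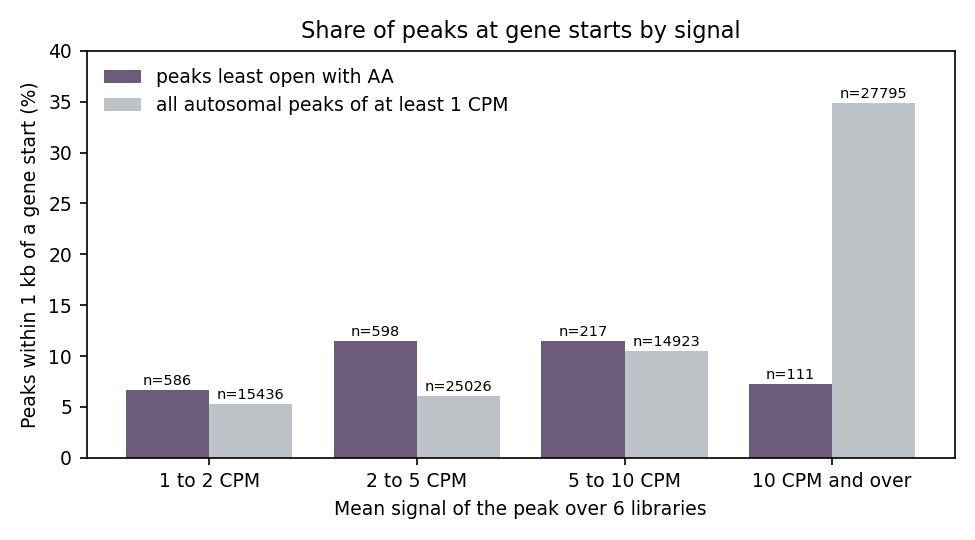
Percentage of peaks within 1 kb of a gene start, by class of mean CPM over the 6 libraries, for the peaks least open with AA (left bars) and for all autosomal peaks of at least 1 CPM (right bars), with the number of peaks above each bar. The selected peaks have the higher share in the 3 classes under 10 CPM and the lower share, 7.21% against 34.9%, in the class of 10 CPM and over.

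The promoter windows under selected peaks were like others in composition, with a median GC content of 62% against 61% over the 14591 windows under any autosomal peak of at least 1 CPM, and 19 against 20 CG pairs. Among peaks under 10 CPM they were richer in both, at 62% against 58% GC and 19.5 against 13 CG pairs. The ETS motif CCGGAAG, searched on both strands like all motifs here, was in 2 of the 120 windows (1.67%) and in 16.5% of all windows. Under 10 CPM it was in 1.89% against 5.57%. The CREB motif TGACGTCA was in 0 of 120, which allows a share of up to 2.5%, and in 3.04% of all windows. Under 10 CPM it was in 0 of 106, which allows a share of up to 2.83%, and in 1.85% of all such windows, so that no difference was detectable there.

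The KLF motif CCCCNCCC was in 43.3% against 48.2% of windows and the TEAD motif GGAATG in 11.7% against 12%. The RUNX motif TGTGGT was in 15.8% against 12.1%, SOX (AACAAT) in 7.5% against 5.7%, and AGATAA, searched for GATA factors, in 5% against 6.39%. The AP-1 motif TGANTCA was in 3.33% against 5.62%. The HNF4 motif CAAAGTCC was in 0.833% against 1.58%. For CDX, TTTATTG was in 1.67% against 2.6% of windows. For TCF, ATCAAAG was in 1.67% against 2.58% of windows. For FOX, TGTTTAC was in 2.5% against 2.9% of windows. Under 10 CPM, KLF was in 44.3% against 44.5%, TEAD in 12.3% against 13.3%, RUNX in 14.2% against 13.4% and SOX in 8.49% against 7%. GATA was there in 3.77% against 8.42%, AP-1 in 3.77% against 7.03% and HNF4 in 0.943% against 2.11%. CDX was in 0.943% against 2.53%, TCF in 1.89% against 3.14% and FOX in 2.83% against 4.08%. Windows of a gene can overlap, so the same site can count in several windows. A match is a run of letters and not a bound site.

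Other peaks close by were read as well, and they are not independent of the rule. Every peak that met the rule was selected and so left both the neighbours and the other peaks. How far this lowered their lower calls with AA was not tested. Of the 1863 autosomal peaks of at least 1 CPM that were not selected but lay within 10 kb of a selected one, 416 (22.3%) were called lower with AA than with Vehicle, and 13.2% of all 81668 other peaks were. Called higher were 168 (9.02%), against 17.6% of all others and 16.7% of all tested peaks. Their median log2 change with AA over Vehicle was -0.17, against -0.00 for all others. The neighbours were somewhat weaker, with a median of 4.36 against 5.34 CPM, and 13.5% against 16.5% lay at gene starts. Away from gene starts the shares were 24.1% lower and 7.94% higher for neighbours, and 14.5% and 18% for all others.

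Leaving out the 95 peaks within 1 kb, where the counting let 1 read pair enter several peaks, gave 22.2% lower and 9.39% higher. Leaving out the 62 neighbours that were low with both treatments gave 19.9% and 9.33%. The counts rested on every library of the contrast: 253, 265, 263 and 263 were called lower without AA replicate 1, AA replicate 2, Vehicle replicate 1 and Vehicle replicate 2. Without AA replicate 1 that was 13.6% of neighbours against 8.61% of all tested peaks. DESeq2 called 6.32% of the neighbours lower, against 3.58% of all peaks to which it gave an adjusted p. The counts of neighbours called higher were 111 to 121 without 1 of the 4 libraries of the contrast.

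The share of other peaks called lower with AA than with Vehicle declined with distance from the nearest selected peak up to 500 kb. It was 24.2% within 1 kb, 22.8% at 1 to 5 kb, 21.8% at 5 to 10 kb, 17.1% at 10 to 25 kb and 16.6% at 25 to 50 kb. It was 14% at 50 to 100 kb, 12.2% at 100 to 500 kb and 12.8% beyond. The share called higher ran the other way, with 2.11% within 1 kb and 18.7% beyond 500 kb.

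Against PGE2 lower calls among the neighbours were close to the background. Of the 1863, 92 (4.94%) were called lower with AA, against 4.56% of all other peaks. Called higher were 34 (1.83%), against 5.4% of all other peaks and 5.06% of all tested peaks, and the median log2 change was -0.09. Away from gene starts the shares lay further apart, with 2.98% of neighbours (48 of 1612) and 1.73% of all other peaks called lower. Both counts fell without AA replicate 1, AA replicate 2 or PGE2 replicate 2, and so did both shares of all tested peaks. The lower count rose without PGE2 replicate 1, as did that share. DESeq2 called 9 of 664 neighbours lower (1.36%), against 0.974% of all peaks to which it gave an adjusted p. It called 0 higher, with 24 at an unadjusted p under 0.05, against 0.632% of all such peaks. No test compared the AA change of neighbours over Vehicle with that over PGE2, and these comparisons share the AA libraries.

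**Figure D4:**
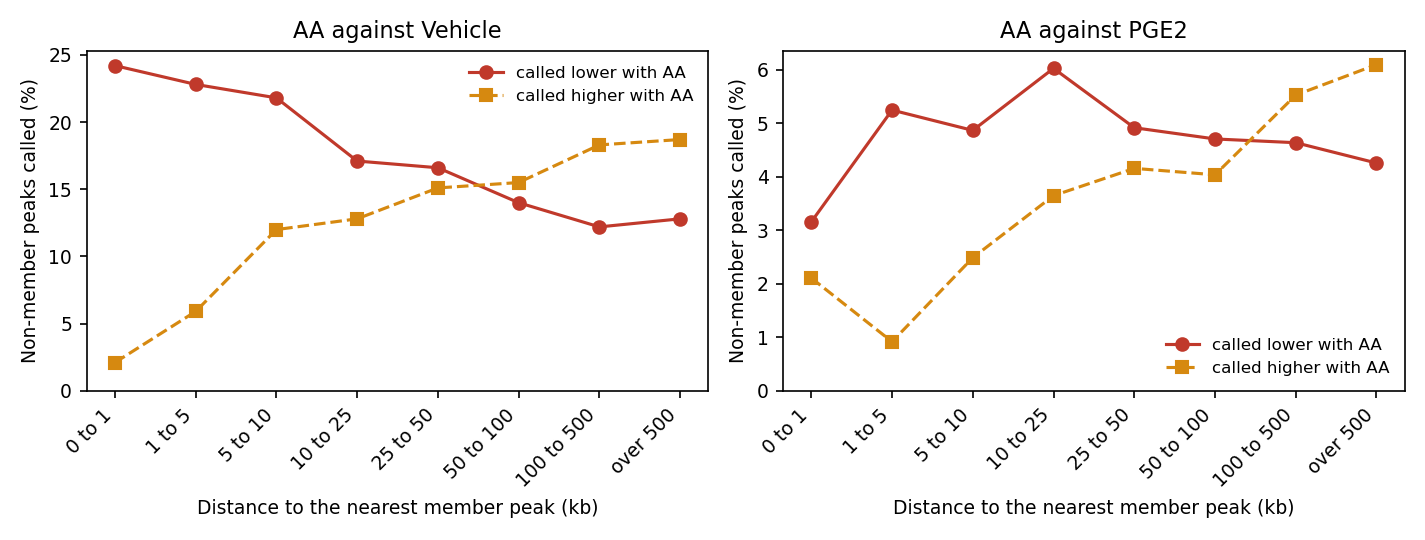
Percentage of peaks that were not selected and were called lower (circles) or higher (squares) with AA by edgeR, by distance to the nearest selected peak, against Vehicle (left) and against PGE2 (right). Lower calls against Vehicle fall with distance, with 24.2% within 1 kb and 12.8% beyond 500 kb, and those against PGE2 stay between 3.16% and 6.03%.

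The selected peaks were spread over many genes. Of 1512, 1261 (83.4%) had a protein-coding gene within 50 kb, against 89% of all autosomal peaks of at least 1 CPM, and they named 1128 genes. Of these, 1013 had 1 selected peak, 100 had 2, 13 had 3, Auts2 had 4 and Gse1 had 5. Another selected peak lay within 10 kb of 84 and within 50 kb of 274.

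Gse1, a coiled-coil protein gene, had 50 peaks along more than 300 kb. The strongest of its 5 selected peaks, at chr8:120456390-120456821, had 7.23 and 6.47 CPM with AA, 10.6 and 10.5 CPM with PGE2 and 12.9 and 13.3 CPM with Vehicle. The peak at chr8:120373910-120374760 had 6.32 and 6.06 CPM with AA, 9.04 and 8.89 CPM with PGE2 and 10.7 and 10.7 CPM with Vehicle, and that at chr8:120264723-120265346 had 3.23 and 3.15 CPM with AA, 4.44 and 4.71 CPM with PGE2 and 5.69 and 5.04 CPM with Vehicle. At chr8:120528014-120528516 the values were 2.04 and 1.78 CPM with AA, 3.22 and 2.69 CPM with PGE2 and 3.43 and 3.02 CPM with Vehicle. In all of these, PGE2 lay between AA and Vehicle or overlapped Vehicle, whereas the one already described was highest with PGE2. Of 44 other tested peaks of Gse1, 16 were called lower with AA than with Vehicle and 5 higher.

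Auts2, a gene whose protein joins Polycomb complexes, had 71 peaks over about a megabase. Its start peak, at chr5:132542915-132543576, had 1.9 and 2.42 CPM with AA, 3.52 and 3.66 CPM with PGE2 and 3.67 and 3.33 CPM with Vehicle, with PGE2 and Vehicle overlapping. The peak deep in the gene at chr5:132039457-132039840 had 1.69 and 1.94 CPM with AA, 2.61 and 2.92 CPM with PGE2 and 3.98 and 3.57 CPM with Vehicle. Of the remaining pair, the peak at chr5:132229393-132230049 had 1.05 and 1.05 CPM with AA, 2.38 and 1.49 CPM with PGE2 and 2.42 and 2.71 CPM with Vehicle. Of 65 other tested peaks, 19 were called lower with AA than with Vehicle and 11 higher, so the gene's peaks went both ways.

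Epb41l3, a cytoskeletal linker of the 4.1 family, had 16 peaks, of which 13 were called lower with AA than with Vehicle, and the log2 changes of the other 3 were also below 0. Its selected peak at chr17:69181294-69182484 had 13.1 and 13.1 CPM with AA, 18 and 16.5 CPM with PGE2 and 26.4 and 25 CPM with Vehicle, and that at chr17:69103121-69103872 had 8.08 and 8.89 CPM with AA, 13.3 and 12.4 CPM with PGE2 and 18.4 and 21.7 CPM with Vehicle. PGE2 lay between AA and Vehicle in both. The third, at chr17:69112440-69112674, had 0.702 and 0.808 CPM with AA, 1.84 and 1.35 CPM with PGE2 and 2.18 and 1.78 CPM with Vehicle. Of the other 13 peaks, 10 were called lower with AA than with Vehicle, with a median log2 of -0.62, and 1 was called lower than with PGE2. Between PGE2 and Vehicle, 12 of the 16 were called lower with PGE2 and 1 higher.

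Man2a1, a Golgi mannosidase gene, had 3 selected peaks of 11. The strongest, at chr17:64577360-64578502, had 13.9 and 13.6 CPM with AA, 18 and 19.4 CPM with PGE2 and 21.3 and 18.3 CPM with Vehicle. Of the other 8, 4 were called lower with AA than with Vehicle and none higher. In Fstl1, which encodes a secreted follistatin-like protein, the strongest of 3, at chr16:37795706-37797349, had 10.5 and 11.1 CPM with AA, 15.8 and 14.9 CPM with PGE2 and 21.6 and 19.7 CPM with Vehicle, and 2 of the other 6 were called lower and none higher. In Stard13 the strongest of 3, at chr5:151296109-151296824, had 12.6 and 12.5 CPM with AA, 18.2 and 17.7 CPM with PGE2 and 17.9 and 17.3 CPM with Vehicle, and of 40 other tested peaks, 8 were called lower and 10 higher.

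**Figure D5:**
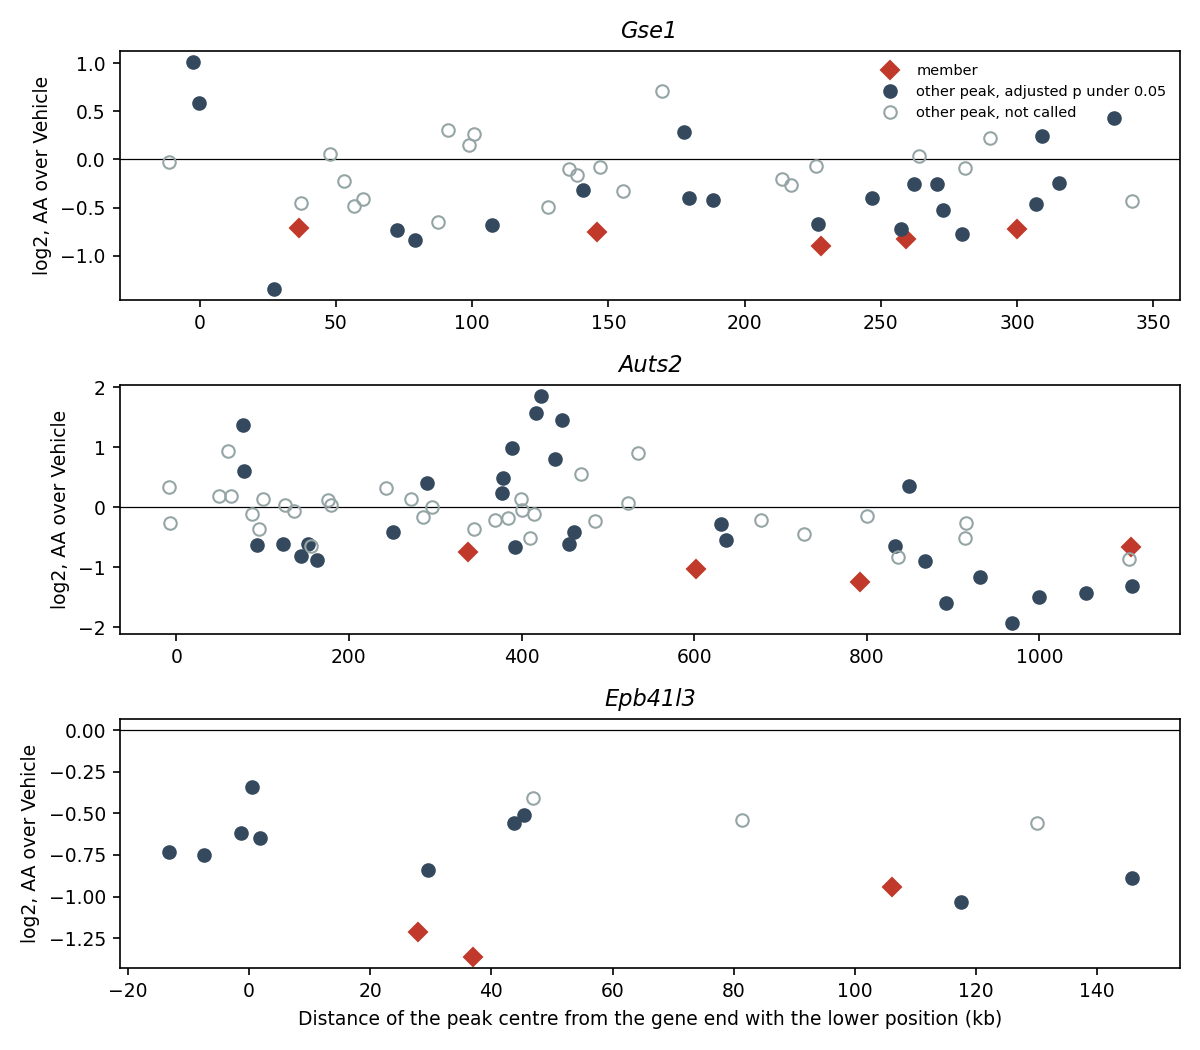
Change with AA over Vehicle on the log2 scale of all tested peaks assigned to Gse1, Auts2 and Epb41l3, by distance in kb from the gene end with the lower position. Diamonds are the 5, 4 and 3 selected peaks, filled circles other peaks called by edgeR and open circles peaks not called, and all peaks of Epb41l3 lie below 0 while the other 2 genes have peaks on both sides.

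The gene lists used here were chosen with earlier results of these data known, and their shares are set beside the 1.7% of all peaks near a gene that were selected. Crypt stem cell genes had 9 selected peaks of 292 (3.08%), in Aqp4, Bmi1, Ephb3, Lrig1, Rgmb, Sox9, Tnfrsf19 and Znrf3. Near Znrf3, a ubiquitin ligase gene that lowers Wnt receptors, the peak had 2.74 and 2.42 CPM with AA, 5.36 and 4.04 CPM with PGE2 and 6.08 and 4.96 CPM with Vehicle. In Bmi1, a Polycomb gene, the values were 1.33 and 0.808 CPM with AA, 2.15 and 2.84 CPM with PGE2 and 2.73 and 1.94 CPM with Vehicle. The other 283 stem cell list peaks were called lower with AA than with Vehicle in 63 cases (22.3%) and higher in 40 (14.1%). All peaks that were not selected were called lower in 13.2% and higher in 17.6% of cases. Against PGE2, 14 (4.95%) of the 283 were called lower and 8 (2.83%) higher, beside 4.56% and 5.4%.

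Wnt target genes had 6 of 258 (2.33%). In Apcdd1, a Wnt inhibitor gene, the peak had 2.88 and 2.67 CPM with AA, 6.74 and 4.71 CPM with PGE2 and 6.47 and 7.05 CPM with Vehicle, and 1 of its 6 other peaks was called lower with AA than with Vehicle. Sterol and fatty acid synthesis genes had 5 of 171 (2.92%), among them peaks of Acaca, Fasn, Mvk and Scd1. One 22161 bp from Mvk, mevalonate kinase, had 2.11 and 2.42 CPM with AA, 4.14 and 3.96 CPM with PGE2 and 5.46 and 3.88 CPM with Vehicle. The other 166 peaks of that list were called lower in 15 cases (9.04%) and higher in 26 (15.7%) against Vehicle.

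Eicosanoid genes had 4 of 235 (1.7%), in Fads1, Ptger3 and Abcc4, which encodes an exporter of prostaglandins. Its stronger ratio was in a weak peak 27424 bp away with 10 and 8 counts with AA, 13 and 16 counts with PGE2 and 16 and 17 counts with Vehicle, while 10 of 37 other Abcc4 peaks were called higher with AA than with Vehicle and 1 lower. The cAMP and CREB list had 4 of 321. In Creb1, the cAMP response factor, the peak had 2.39 and 2.1 CPM with AA, 4.21 and 3.14 CPM with PGE2 and 3.2 and 4.03 CPM with Vehicle, with PGE2 and Vehicle overlapping. Near Rapgef4, a cAMP-activated exchange factor gene, it had 1.69 and 1.21 CPM with AA, 2.22 and 2.69 CPM with PGE2 and 2.65 and 3.02 CPM with Vehicle.

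Nuclear receptor genes had 5 of 387 (1.29%). In Esrrg, an orphan nuclear receptor gene, the peak at chr1:187900636-187901450 had 10.8 and 10 CPM with AA, 17.2 and 15.8 CPM with PGE2 and 21.9 and 19.3 CPM with Vehicle. Of 28 other tested peaks of Esrrg, 23 were called lower with AA than with Vehicle and 1 higher, with a median log2 of -1.03, while none was called against PGE2 in either direction. In Rarb, a retinoic acid receptor gene, the peak had 2.04 and 1.94 CPM with AA, 3.14 and 3.81 CPM with PGE2 and 5.23 and 4.81 CPM with Vehicle, but 9 of its 28 other peaks were called higher with AA than with Vehicle and 1 lower.

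BMP and TGF-beta pathway genes had 3 of 301 (0.997%). The peak in Tgfbr3, a co-receptor gene, was among the strongest, at chr5:107272080-107273246 with 17.5 and 16.3 CPM with AA, 24.7 and 24.4 CPM with PGE2 and 34.7 and 34.3 CPM with Vehicle. That in Acvr1, a type I BMP receptor gene, had 1.05 and 1.13 CPM with AA, 2.38 and 2.24 CPM with PGE2 and 2.73 and 2.33 CPM with Vehicle. The other 298 peaks of that list were called lower with AA than with Vehicle in 42 cases (14.1%) and higher in 63 (21.1%). The YAP and TEAD list had 3 of 216 (1.39%), with 2.04 and 1.7 CPM with AA, 3.98 and 3.66 CPM with PGE2 and 3.28 and 3.1 CPM with Vehicle in Tead1 and 2.32 and 2.34 CPM with AA, 3.83 and 4.34 CPM with PGE2 and 4.37 and 4.03 CPM with Vehicle near the Hippo kinase gene Lats2. In Tead1 both PGE2 libraries were above both Vehicle libraries, and near Lats2 they overlapped. The other 213 YAP and TEAD list peaks were called lower with AA than with Vehicle in 20 cases (9.39%) and higher in 51 (23.9%). All peaks that were not selected were called lower in 13.2% and higher in 17.6% of cases, as given above. EGF receptor and ERK feedback genes had 2 of 273 (0.733%), with 3.58 and 3.23 CPM with AA, 4.75 and 5.08 CPM with PGE2 and 6.79 and 6.59 CPM with Vehicle near Lrig1, an EGF receptor inhibitor gene, and 0.983 and 0.404 CPM with AA, 1.76 and 1.49 CPM with PGE2 and 1.95 and 2.02 CPM with Vehicle in Etv5, an ETS factor gene. The other 271 peaks of that list were called lower with AA than with Vehicle in 36 cases (13.3%) and higher in 74 (27.3%).

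Notch pathway genes had 2 of 212 (0.943%), in Maml3, a Notch coactivator gene, with 0.843 and 0.727 CPM with AA, 1.23 and 1.49 CPM with PGE2 and 2.11 and 3.02 CPM with Vehicle, and at the start of the ligand gene Dll3, with 2.53 and 1.94 CPM with AA, 3.45 and 3.59 CPM with PGE2 and 3.35 and 4.34 CPM with Vehicle. Intestinal identity factors had 5 of 326 (1.53%). A peak 31158 bp from Gata6, a zinc finger factor gene, had 1.05 and 0.97 CPM with AA, 2.07 and 2.02 CPM with PGE2 and 2.42 and 3.33 CPM with Vehicle, and one 43806 bp from Klf4 had 1.55 and 1.05 CPM with AA, 2.22 and 2.99 CPM with PGE2 and 2.5 and 3.18 CPM with Vehicle. Klf4 counts also in the immediate early list, which had 2 of 174. The other 210 Notch list peaks were called lower with AA than with Vehicle in 30 cases (14.3%) and higher in 39 (18.6%). Of the other 321 identity factor peaks, 51 (15.9%) were called lower and 54 (16.8%) higher.

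Enteroendocrine genes had 3 of 62 (4.84%), weak peaks in or near Cck, Chga and Ghrl. The edgeR test called those of Cck and Chga in neither AA comparison. Cck, a gut hormone gene, had 0.983 and 0.889 CPM with AA, 1.38 and 1.42 CPM with PGE2 and 1.4 and 2.09 CPM with Vehicle, and Chga, a secretory granule gene, had 0.843 and 0.889 CPM with AA, 1.38 and 1.27 CPM with PGE2 and 1.48 and 1.55 CPM with Vehicle. The other 59 peaks of this list were called lower with AA than with Vehicle in 8 cases (13.6%) and higher in 7 (11.9%). The Paneth cell list had 1 of 38 (2.63%), near Nupr1, and the interferon list 1 of 74 (1.35%), at the start of Gbp3, with 2.6 and 2.02 CPM with AA, 4.29 and 3.29 CPM with PGE2 and 4.13 and 4.65 CPM with Vehicle. Immune markers had 1 of 18 (5.56%), near Itgax, with 4.14 and 3.64 CPM with AA, 6.67 and 5.31 CPM with PGE2 and 7.41 and 7.36 CPM with Vehicle. Endothelial markers had 2 of 72 (2.78%), with 6.46 and 6.14 CPM with AA, 8.58 and 8.22 CPM with PGE2 and 8.66 and 9.46 CPM with Vehicle in Pecam1 and 1.83 and 1.37 CPM with AA, 2.38 and 2.39 CPM with PGE2 and 3.2 and 2.56 CPM with Vehicle in Erg, and stromal markers had 0 of 33.

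Fetal and regenerative genes had 1 of 154 (0.649%), in Basp1, with 1.12 and 1.29 CPM with AA, 2.15 and 1.64 CPM with PGE2 and 2.57 and 2.09 CPM with Vehicle. The other 153 peaks of that list were called higher with AA than with Vehicle in 77 cases (50.3%) and lower in 9 (5.88%). No selected peak was found among the 182 peaks of PPAR target and fatty acid oxidation genes, the 201 of absorptive enterocyte genes, the 95 of goblet cell genes and the 73 of tuft cell genes. There was none among the 69 of proliferation genes, the 127 of epithelial markers and the 129 of defence genes under NF-kB.

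Peaks at the edge of the rule had close values. Just inside, the ratio was 1.2503 in St6galnac3, with 4 and 4.36 CPM with AA, 6.36 and 5.46 CPM with PGE2, and 7.18 and 5.58 CPM with Vehicle. It was 1.2505 in Wif1, with 5.76 and 5.33 CPM with AA, 7.2 and 7.47 CPM with PGE2, and 7.57 and 7.21 CPM with Vehicle. Just outside, at 1.2498, was a peak in Trip12, with 1.76 and 1.78 CPM with AA, 2.22 and 2.47 CPM with PGE2, and 2.96 and 2.25 CPM with Vehicle.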

How the data were processed

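Raw counts per consensus peak of 6 ATAC-seq libraries were deposited by the authors as 1 table, in mm10 coordinates. Counting used featureCounts 1.6.3, per the file headers, on read pairs by their 5′ ends, unstranded, with a pair counted in every peak that it overlapped. Per the submitters' processing notes, Trim Galore, BWA, Picard, SAMtools and MACS2 were used. Whether reads were shifted for the transposase, and whether peaks were called per library or pooled, is not given in the sources used here. All libraries share 1 peak set, so regions outside it have no value.

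CPM for the selection were counts over the column total. edgeR (4.0.16) was run on all peaks with TMM scaling, filterByExpr (1476 peaks removed, 89347 kept, every selected peak among them) and a robust quasi-likelihood F-test with group as its term, Benjamini-Hochberg adjustment and a threshold of 0.05. That left 3 residual degrees of freedom. Each SE of a log2 change was derived from the F statistic. Over all selected peaks the median SE was 0.27 for AA over Vehicle, and weak peaks had larger errors. The code was tested on simulated data. DESeq2 (1.42.0), other scalings, other thresholds and leaving out libraries were alternatives.

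A peak was given the protein-coding gene nearest to its centre within 50 kb (RefSeq, GRCm38.p6), which need not be the gene that it regulates. Starts came from the RefSeq promoter table, which covered 79.9% of 21883 genes, and for the others either end was used. Promoter windows on chromosome 18 were not used here. Peaks were named by a rule: the 12 largest ratios at a mean of at least 2 CPM, the 6 highest mean CPM, the 6 largest ratios at gene starts, the 6 genes with most selected peaks, and the 2 largest ratios in each of 26 gene lists. The lists, the rule and the selected peaks were chosen with earlier results of these data known. Same-numbered libraries did not deviate together. Some peaks that the rule named are left out of the text.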

Additional observations from a re-analysis of the deposited data

How the results depend on the processing

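The rule kept 3246 peaks where PGE2 and Vehicle had to exceed AA by 15%, 257 at 50% and 926 at a mean minimum of 2 CPM, and 1707 to 5117 when 1 library was left out, since fewer libraries then had to meet it. With CPM from TMM-scaled totals or DESeq2 size factors it kept 1552 and 1418 peaks, with 92.4% and 88% of the selected peaks among them. Leaving out 1 library gave 685 to 1117 selected peaks called lower with AA than with Vehicle and 154 to 486 lower than with PGE2. For PGE2 against Vehicle it gave 0 to 16 called higher and 61 to 109 lower. For neighbours within 10 kb it gave 253 to 448 lower and 111 to 199 higher with AA than with Vehicle, and 35 to 128 lower and 11 to 30 higher than with PGE2. With DESeq2 the first 4 counts were 319, 15, 0 and 14, and those of neighbours 116, 50, 9 and 0, and the cause was not tested. DESeq2 gave an adjusted p against PGE2 to 664 of the 1863 neighbours. The 2 counts of 0 stood beside 2 and 24 peaks at an unadjusted p under 0.05. Within 50 kb, where more neighbours are counted, 1558 of 8656 (18%) were called lower against Vehicle and 456 (5.27%) against PGE2. Of all other peaks, 13.2% and 4.56% were. With a gene within 10 kb the share near a gene was 67.6% (73.5% of all autosomal peaks), and with starts within 2 kb the gene-start share was 12.2% (20.2% of all). Same-numbered libraries did not deviate together (correlations of 0.0357, 0.00469 and -0.0198), and with a replicate block the counts were 1091 and 570 for selected peaks lower with AA and 422 and 104 for neighbours, in the order Vehicle, PGE2. RLE scaling, library totals and no low-count filter kept each count of selected peaks and neighbours within 1.5 times, and no named peak reversed. Library totals moved the median of all peaks to -0.05 for AA and for PGE2 over Vehicle. The balance of calls over all tested peaks then turned, to 16% lower and 15.4% higher with AA and 13.6% lower and 12.9% higher with PGE2, while the neighbours' shares with AA were 24.8% and 7.89%. Counts were low: the median selected peak had 20 to 40 per library.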
